A study of Arabidopsis thaliana with 6 samples.

Results

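The chloroplast-encoded genes of *Arabidopsis* were examined in RNA-seq libraries of 4-week-old plants treated for 12 h with 300 µM INA or with water. They were chosen as every listed gene model whose identifier starts with ATCG, which marks the plastid genome, and there were 79 of them among 25931 gene models. INA (2,6-dichloroisonicotinic acid) is a synthetic analog of salicylic acid (SA), and the study asks how SA-responsive transcription depends on the coactivator NPR1 and the histone acetyltransferases HAC1 and HAC5. The groups used here were INA-treated *npr1-1* (*npr1-1*+INA), INA-treated *hac1/5*, which is the double mutant *hac1-2 hac5-2* (*hac1/5*+INA), INA-treated wild-type Col (Col+INA) and water-treated Col (Col), and both mutants are in the Col background. Each condition had a single library, made from the mixed RNA of 3 experiments, and no difference has a replicate check. Each mutant is represented by 1 allele or allele pair. Mutants treated with water were not analysed here, so nothing was measured of how the genotypes differed before INA.

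Plastids keep a small genome of their own, inherited from a cyanobacterial ancestor. It encodes core subunits of both photosystems, of the cytochrome b6f complex, the ATP synthase, the NADH dehydrogenase-like (NDH) complex, the large subunit of Rubisco, and part of the machinery that expresses these genes. Neighbouring genes are read out as polycistronic units. Transcription is shared between a bacterial-type polymerase, whose core is plastid-encoded (*rpoA*, *rpoB*, *rpoC1*, *rpoC2*) and whose sigma factors come from the nucleus, and a phage-type polymerase made in the nucleus. Photosynthesis genes depend mainly on the plastid-encoded enzyme and the *rpo* genes on the nuclear-encoded one.

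Neighbours in a unit can lie so close that their gene models touch or overlap, which is why the following junctions are shown: a read on shared bases fits both models, so the counts of such neighbours are not independent. Each is written 5′ to 3′ on the coding strand of the plastid genome (build TAIR10, read from the RefSeq copy of it), with the bases common to both gene models in capitals. The *psbD* and *psbC* models share 53 bases (chrC:33690-33802, forward strand), those of *atpB* and *atpE* share 4 (chrC:52630-52693, reverse strand), those of *rpl22* and *rps3* share 16 (chrC:83437-83512, reverse strand), and those of *ndhH* and *ndhA* share 0 (chrC:121979-122041, reverse strand).
psbD/psbC: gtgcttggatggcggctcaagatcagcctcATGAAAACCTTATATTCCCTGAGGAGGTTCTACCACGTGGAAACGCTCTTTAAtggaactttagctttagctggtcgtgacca
atpB/atpE: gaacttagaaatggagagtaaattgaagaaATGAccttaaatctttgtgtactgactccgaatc
rpl22/rps3: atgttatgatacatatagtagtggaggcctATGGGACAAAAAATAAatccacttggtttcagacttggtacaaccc
ndhH/ndhA: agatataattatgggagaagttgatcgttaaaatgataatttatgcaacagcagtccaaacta
In the *atpB*/*atpE* junction the capitals ATGA hold the start codon of *atpE* and overlap the stop codon of *atpB*.

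Reads on gene models summed to between 6698569 (*npr1-1*+INA) and 7146973 (Col+INA), and a count of 0 allows up to 3 reads, at most 0.448 CPM (reads scaled to a common library sum, without the length of the gene model). *HAC5*, one of the mutated genes, had 2 reads in *hac1/5*+INA, against 122 in Col+INA, a log2 ratio of -5.89 (95% interval -8.95 to -4.01). *HAC1* had 25 reads on its first gene model in *hac1/5*+INA, against 28 in Col+INA, and *npr1-1* is a missense allele, so neither *HAC1* nor *NPR1* reads check a label. The leaf markers were abundant, with 1708 to 187650 reads each, whereas the flower, seed and root hair markers had 0 or 1 read or were not listed, except the flower gene *PI* with 9 reads in *hac1/5*+INA. Of 79 members, 79 had reads in all 4 libraries, and only 3 had under 10 reads in both libraries of some comparison.

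Chloroplast-encoded genes took the largest share of the library in *npr1-1*+INA and the smallest in Col+INA. They had 269660 reads or 4.03% of all reads on gene models in *npr1-1*+INA (95% exact binomial interval 4.01 to 4.04%), 173651 or 2.50% in *hac1/5*+INA (2.49 to 2.51%), 144181 or 2.02% in Col+INA (2.01 to 2.03%) and 197837 or 2.86% in Col (2.85 to 2.87%). Ratios are given for 3 comparisons throughout: Col+INA over Col (the INA comparison), *npr1-1*+INA over Col+INA (the *npr1-1* comparison) and *hac1/5*+INA over Col+INA (the *hac1/5* comparison), always in this order. The log2 ratio of these shares was -0.50 in the INA comparison, 1.00 in the *npr1-1* comparison and 0.31 in the *hac1/5* comparison. The intervals of shares and ratios cover counting error only, not the variation between plants. In bulk RNA, fewer chloroplast-rich cells and less chloroplast RNA per cell cannot be told apart. The summed reads of mitochondria-encoded genes (65 listed) ran the other way, with 0.0507% of reads in *npr1-1*+INA, 0.0595% in *hac1/5*+INA, 0.0693% in Col+INA and 0.0597% in Col. Only 21, 21 and 23 of them had at least 10 reads in 1 of the 2 libraries of the 3 comparisons. Over these the median log2 ratio was 0.86, -1.27 and 0.07. In the *hac1/5* comparison 14 were above 0 and 9 below, so there the single genes did not run the other way. The 6 leaf markers also moved: 4 were lower in Col+INA than in Col and none higher, 2 were higher and none lower in the *npr1-1* comparison, and 3 were higher and 1 lower in the *hac1/5* comparison. Their part in the chloroplast values was not tested.

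**Figure D1:**
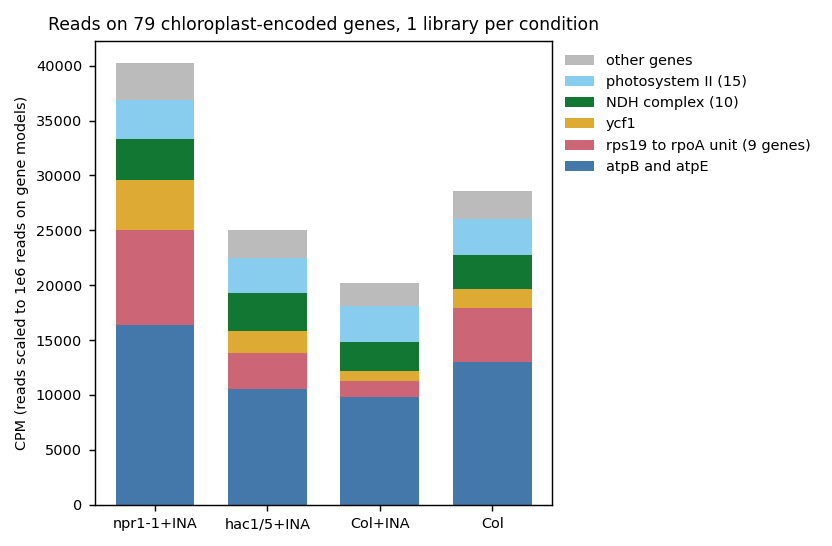
CPM (y axis) on the 79 chloroplast-encoded genes in the single library of each condition (x axis), stacked by gene group. The *rps19* to *rpoA* unit took 8603 CPM in *npr1-1*+INA, 3323 in *hac1/5*+INA, 1436 in Col+INA and 4946 in Col.

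Few genes carried most of these reads. The ATP synthase subunits *atpB* and *atpE* together made up 40.8% of the chloroplast reads in *npr1-1*+INA, 42.0% in *hac1/5*+INA, 48.6% in Col+INA and 45.5% in Col. Per length, *atpE* (epsilon subunit of the catalytic head) was the most abundant member, with an RPKM of 13597 in *npr1-1*+INA, 8871 in *hac1/5*+INA, 8327 in Col+INA and 10723 in Col, and *accD*, a subunit of the acetyl-CoA carboxylase of fatty acid synthesis, had the lowest mean RPKM over the 4 libraries, at 5.19. *rpl32*, a protein of the large ribosomal subunit, came to a mean RPKM of 5092, the small photosystem II subunit *psbM* to 2635 and the NDH subunit *ndhK* to 2529, whereas the median member had a mean RPKM of 87.8. *psbA* and *rbcL*, which encode the D1 reaction centre protein and the large subunit of Rubisco, had mean RPKM values of only 199 and 83.1. The library preparation, including any selection for polyadenylated RNA, is not given in the sources used here, and levels between genes rest on it. The shares and ratios between libraries given above and below may rest on it too, which was not tested.

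A gene was counted as higher or lower between 2 libraries at the cut-offs in the study's methods, a log2 ratio of 1 or more in size together with an FDR not above 0.01. The study's own count of INA-induced genes used an FDR of up to 0.2. Here, FDR values are those of exact binomial tests of read numbers, adjusted after Benjamini and Hochberg across every gene model of the comparison. They speak of the 2 libraries and not of the conditions. Both mutant comparisons use the same Col+INA library, as does the INA comparison, so a high or low count there moves all 3, the INA comparison one way and both mutant comparisons the other.

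In Col+INA, 11 of the 79 chloroplast-encoded genes were lower than in Col (13.9%) and none was higher. Among all 24178 gene models of that comparison, 7.54% were lower and 12.3% higher. The median log2 ratio of the members with at least 10 reads in 1 of the 2 libraries was -0.32, against 0.18 over all gene models so filtered. The 11 genes were 9 neighbours from *rps19* to *rpoA* and the NDH genes *ndhH* and *ndhA*. The 95% intervals lay below 0 for 45 members, above 0 for 5 and spanned 0 for 29.

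In *npr1-1*+INA, 30 members were higher than in Col+INA (38%) and none was lower, whereas among all 24306 gene models 9.44% were higher and 11.5% lower. The median log2 ratio was 0.76, against -0.07 over all gene models. The intervals lay above 0 for 55 members, below 0 for 2 (*psbA* and *psaJ*) and spanned 0 for 22. The 30 genes held all 11 that were lower with INA, in 2 comparisons that share the Col+INA library.

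In *hac1/5*+INA, 15 members were higher than in Col+INA (19%) and none was lower, whereas among all 24082 gene models 3.34% were higher and 5.09% lower. The median log2 ratio was 0.37, against 0.13 over all gene models. The intervals lay above 0 for 44 members, below 0 for 2 (*psbA* and *psaJ*) and spanned 0 for 33. All 15 also passed as higher in *npr1-1*+INA, and 9 of them were lower in Col+INA than in Col. The comparisons share the Col+INA library, and the share of such overlaps among all gene models was not measured. The counts fell when edgeR's exact test was run with an assumed variation between plants: at a biological coefficient of variation of 0.2, 8 members were lower in Col+INA (2.97% of all gene models were), 18 were higher in *npr1-1*+INA (4% of all gene models) and 0 were higher in *hac1/5*+INA (0.448% of all gene models). At 0.4, 0 members were lower in Col+INA and 0 were higher in either mutant, and of all gene models 0.124% were lower in Col+INA, 0.177% were higher in *npr1-1*+INA and 0.0125% were higher in *hac1/5*+INA. Of the 79 members, 57 had their highest CPM in *npr1-1*+INA, 13 in *hac1/5*+INA, 5 in Col+INA and 4 in Col, and 55 had their lowest in Col+INA.

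**Figure D2:**
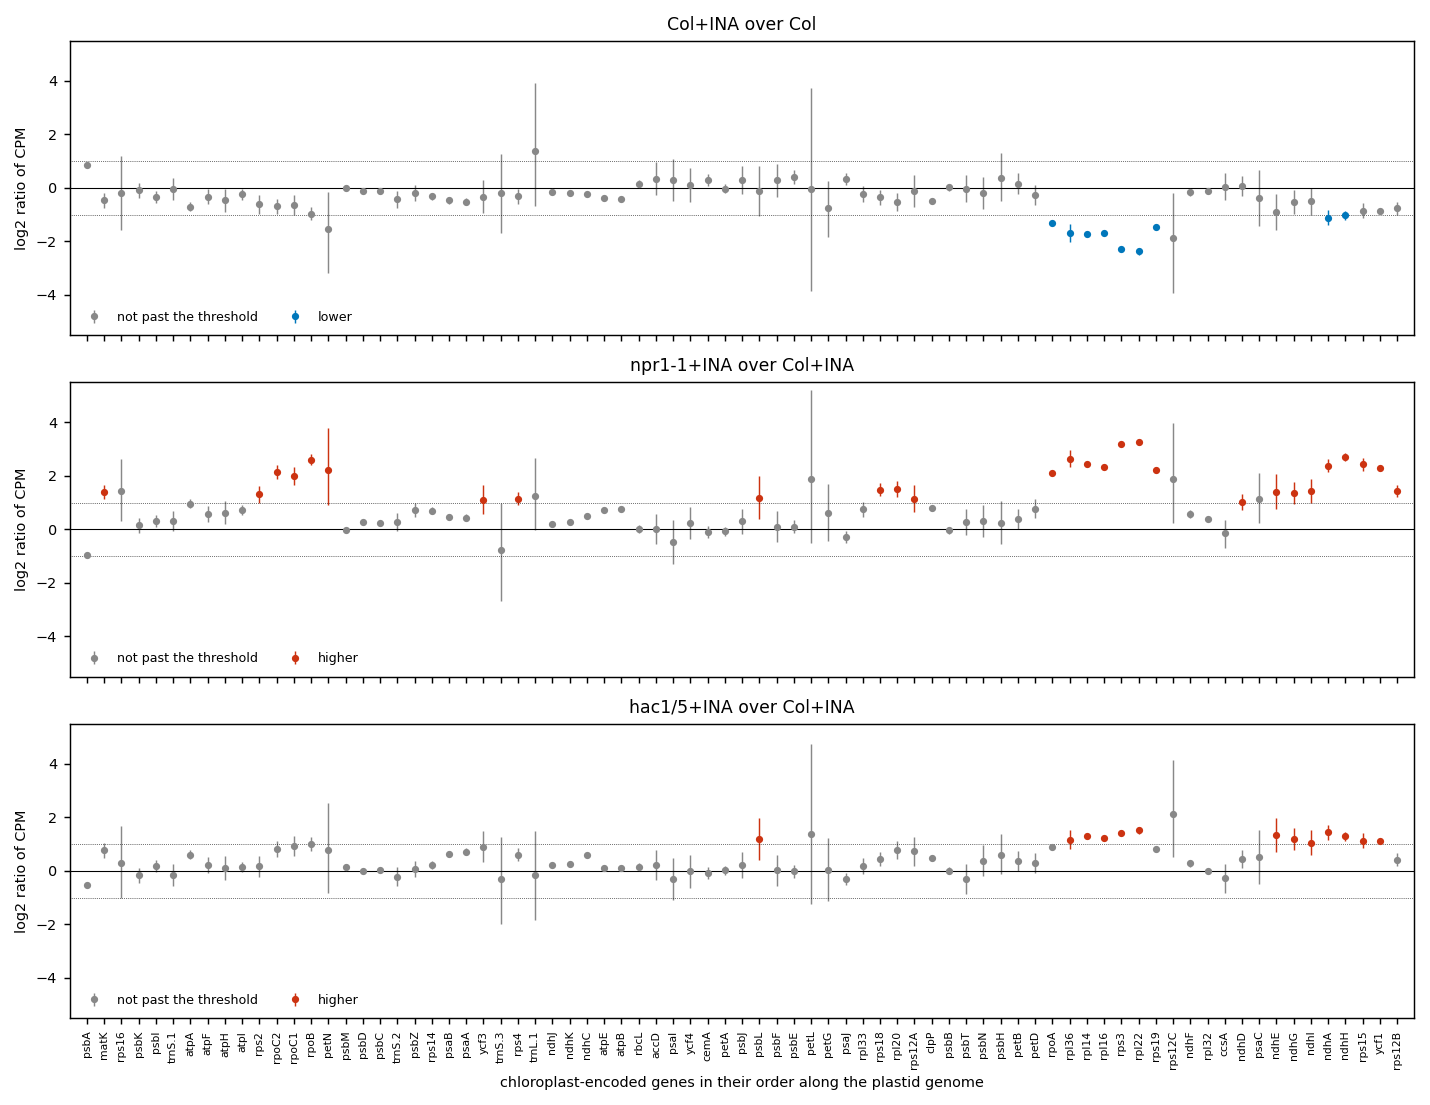
Log2 ratio of CPM (y axis) of the chloroplast-encoded genes, except 2 that are not shown, in their order along the plastid genome (x axis), in the INA (upper), *npr1-1* (middle) and *hac1/5* (lower) comparison; bars are 95% intervals of counting error and dotted lines mark a log2 ratio of 1 in size. The stretch from *rpoA* to *rps19* lies lowest among the well-covered genes in the upper panel and, with *rpoB* and the stretch from *ndhA* to *ycf1*, among the highest in the middle one.

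Ribosomal protein genes held a large part of the calls. Of 20 such gene models, 8 were lower in Col+INA than in Col, 15 were higher in the *npr1-1* comparison and 8 were higher in the *hac1/5* comparison. The gene *rps12* is listed as the models *rps12A*, *rps12B* and *rps12C*, each counted on its own here and in all counts of members. Of these, *rps12A* and *rps12B* are among the 15, and *rps12B* and *rps12C* lie wholly in a repeated stretch of the plastid genome. *rpl22* (ATCG00810, plastid genome from 83467 to 83949, reverse strand), a protein of the large subunit, had 6116 reads in *npr1-1*+INA, 1886 in *hac1/5*+INA, 678 in Col+INA and 3401 in Col. Its log2 ratio was -2.37 in the INA comparison (95% interval -2.49 to -2.25), 3.27 in the *npr1-1* comparison (3.15 to 3.38) and 1.52 in the *hac1/5* comparison (1.39 to 1.65). It had the lowest log2 ratio of the first comparison and the highest of the second among members with at least 50 reads. Its downstream neighbour *rps3* (ATCG00800, from 82826 to 83482), a protein of the small subunit that shares the 16 bases shown above with *rpl22*, had 13667 reads in *npr1-1*+INA, 4121 in *hac1/5*+INA, 1579 in Col+INA and 7460 in Col. For both genes the *npr1-1*+INA library was highest, Col came next, then *hac1/5*+INA and then Col+INA.

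The same order held for all 9 listed genes of the unit, which run in the direction of transcription from *rps19* to *rpoA* and include *rpl22*, *rps3*, *rpl16*, *rpl14* and *rpl36*. Together they took 21.4% of the chloroplast reads in *npr1-1*+INA, 13.3% in *hac1/5*+INA, 7.12% in Col+INA and 17.3% in Col. Without the abundant *atpB* and *atpE*, an alternative chosen after seeing the data, the unit took 36.1% in *npr1-1*+INA, 22.9% in *hac1/5*+INA, 13.9% in Col+INA and 31.8% in Col. All 9 were lower in Col+INA than in Col, with log2 ratios from -2.37 to -1.30, all 9 were higher in *npr1-1*+INA than in Col+INA, from 2.09 to 3.27, and 7 of 9 were higher in *hac1/5*+INA than in Col+INA. The first and the last of these 9 genes moved least: *rps19* had a log2 ratio of -1.46 in the INA comparison, and *rpoA* at the tail had -1.30. *rps19* is not the head of the unit, because *rpl23* and *rpl2* lie ahead of it and are not among the members. *rps19* and *rpoA* were also the 2 that did not pass in *hac1/5*+INA, at 0.83 and 0.88. The *rps19* model lies for 40.5% of its span in a repeated stretch of the plastid genome, and how reads with several positions were counted is not given in the sources used here.

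Between *rps19* and *rpoA* lay *rpl16*, a protein of the large subunit and the gene with the highest mean RPKM of those listed from the unit. It had 11596 reads in *npr1-1*+INA, 5698 in *hac1/5*+INA, 2476 in Col+INA and 7799 in Col. *rpl14*, its downstream neighbour on the genome and also a large-subunit protein gene, had 7001 reads in *npr1-1*+INA, 3287 in *hac1/5*+INA, 1366 in Col+INA and 4365 in Col. The log2 ratios of both in the INA comparison were close, at -1.70 and -1.72, and those of *rpl36* were -1.68, 2.63 and 1.17 in the 3 comparisons. The 12 ribosomal protein gene models elsewhere in the genome, which include those of *rps12*, moved less. None of them passed in Col+INA, 7 were higher in *npr1-1*+INA and 1 (*rps15*) was higher in *hac1/5*+INA. Their reads summed to 4.13% of the chloroplast reads in *npr1-1*+INA, 4.53% in *hac1/5*+INA, 5.14% in Col+INA and 4.23% in Col. In CPM the order differed, with 1662 in *npr1-1*+INA, 1132 in *hac1/5*+INA, 1037 in Col+INA and 1209 in Col. *rpl32*, the most abundant of them, had 6466 reads in *npr1-1*+INA, 5058 in *hac1/5*+INA, 5291 in Col+INA and 5567 in Col, and its log2 ratios were -0.12, 0.38 and -0.02 in the 3 comparisons.

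**Figure D3:**
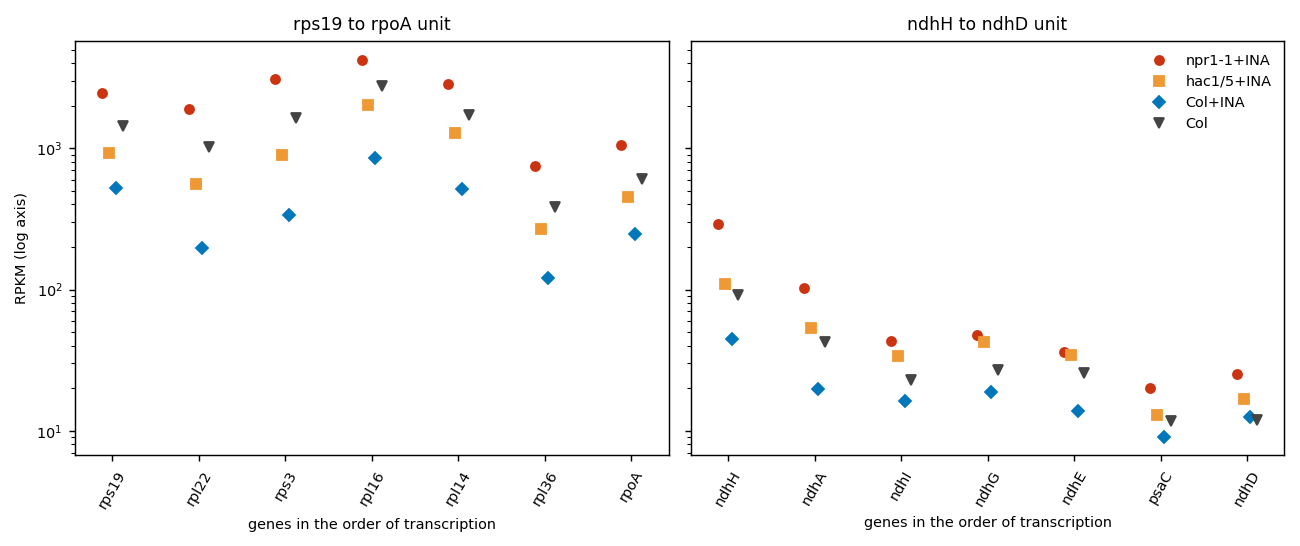
RPKM (log axis) of genes of the *rps19* to *rpoA* unit (left) and of the *ndhH* to *ndhD* unit (right), in the order of transcription, with 1 point per library. In the left panel each gene shown stands in the order *npr1-1*+INA, Col, *hac1/5*+INA, Col+INA from high to low; *rps3* for example has 3105 RPKM in *npr1-1*+INA, 903 in *hac1/5*+INA, 336 in Col+INA and 1641 in Col.

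A further group of neighbours on the reverse strand, from *ycf1* over *rps15* to the NDH genes, was higher in both mutants, with *psaC* in both and *ndhD* in *hac1/5*+INA as exceptions. *ycf1* (ATCG01130, from 123884 to 129244), a large gene for a component of the protein import machinery of the chloroplast envelope, had 30624 reads in *npr1-1*+INA, 14033 in *hac1/5*+INA, 6638 in Col+INA and 11656 in Col. Its log2 ratio was -0.86 in the INA comparison, short of the threshold, 2.30 in the *npr1-1* comparison and 1.12 in the *hac1/5* comparison. Unlike the ribosomal unit, *ycf1* had more reads in *hac1/5*+INA than in Col. The model lies for 19.2% of its span in the repeat. *rps15*, a small-subunit protein next to it, had 831 reads in *npr1-1*+INA, 351 in *hac1/5*+INA, 165 in Col+INA and 288 in Col.

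*ndhH* and *ndhA* encode subunits of the NDH complex, which returns electrons to the plastoquinone pool around photosystem I. *ndhH* (ATCG01110, from 122011 to 123192) had 2309 reads in *npr1-1*+INA, 897 in *hac1/5*+INA, 377 in Col+INA and 743 in Col, and its log2 ratios were -1.03, 2.71 and 1.29 in the INA comparison, the *npr1-1* comparison and the *hac1/5* comparison. *ndhA* had 742 reads in *npr1-1*+INA, 401 in *hac1/5*+INA, 152 in Col+INA and 318 in Col. As the plot of RPKM by gene order shows, these first 2 genes of the unit had the highest RPKM of it in each library. *ndhE*, further along, had 74 reads in *npr1-1*+INA, 73 in *hac1/5*+INA, 30 in Col+INA and 54 in Col. Of the 7 genes from *ndhH* to *ndhD*, 2 were lower in Col+INA than in Col, 6 were higher in the *npr1-1* comparison and 5 in the *hac1/5* comparison. The exception in *npr1-1*+INA was *psaC*, an iron-sulfur subunit of photosystem I, with 33 reads, against 16 in Col+INA.

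Of the other 4 NDH genes, 3 lie in the *ndhC* unit, and none of the 4 passed in any comparison. *ndhK* had 12326 reads in *npr1-1*+INA, 12487 in *hac1/5*+INA, 10745 in Col+INA and 11876 in Col. Its log2 ratios were -0.19, 0.29 and 0.26 in the 3 comparisons. Of the 10 NDH genes, 6 were higher in *npr1-1*+INA, and all 6 lie in the *ndhH* to *ndhD* unit.

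All 4 genes of the plastid-encoded RNA polymerase were higher in *npr1-1*+INA than in Col+INA, with log2 ratios from 1.99 to 2.61. *rpoB* (ATCG00190, from 23111 to 26329), the beta subunit, had 1160 reads in *npr1-1*+INA, 394 in *hac1/5*+INA, 203 in Col+INA and 382 in Col. Its log2 ratio was -0.96 in the INA comparison (95% interval -1.21 to -0.71), 2.61 in the *npr1-1* comparison (2.39 to 2.83) and 1.00 in the *hac1/5* comparison (0.75 to 1.25), which fell just short of the threshold. The 3 genes of its unit summed to 2208 reads in *npr1-1*+INA, 858 in *hac1/5*+INA, 467 in Col+INA and 789 in Col. *rpoA* (ATCG00740, from 77901 to 78890), the alpha subunit at the tail of the ribosomal unit, was the most abundant of the 4, with 6999 reads in *npr1-1*+INA, 3126 in *hac1/5*+INA, 1751 in Col+INA and 4179 in Col. It was the only *rpo* gene that passed as lower in Col+INA than in Col.

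Few genes of the photosystems, the cytochrome b6f complex and the ATP synthase passed the threshold. Of 15 photosystem II genes, none passed in Col+INA and 1, the small subunit gene *psbL*, was higher in both mutants, with 44 reads in *npr1-1*+INA, 46 in *hac1/5*+INA, 21 in Col+INA and 22 in Col. The group's median log2 ratio was -0.02, 0.26 and 0.05 in the INA comparison, the *npr1-1* comparison and the *hac1/5* comparison. *psbD*, the D2 reaction centre protein, had 8791 reads in *npr1-1*+INA, 7608 in *hac1/5*+INA, 7799 in Col+INA and 8173 in Col. *psbM* had 1777 reads in *npr1-1*+INA, 2097 in *hac1/5*+INA, 1930 in Col+INA and 1864 in Col.

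*psbA* (ATCG00020, from 383 to 1444, reverse strand) went in the opposite direction to most members. It had 1051 reads in *npr1-1*+INA, 1486 in *hac1/5*+INA, 2191 in Col+INA and 1163 in Col. The log2 ratio was 0.87 in the INA comparison (95% interval 0.76 to 0.97), -0.97 in the *npr1-1* comparison (-1.07 to -0.86) and -0.52 in the *hac1/5* comparison (-0.61 to -0.42). None reached a log2 ratio of 1 in size, although each FDR was at most 1.3e-25 by the exact binomial test. *psaJ*, a small subunit of photosystem I, also had its highest count in Col+INA, with 297 reads in *npr1-1*+INA, 298 in *hac1/5*+INA, 382 in Col+INA and 290 in Col, and did not pass in any comparison.

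*rbcL* had 803 reads in *npr1-1*+INA, 918 in *hac1/5*+INA, 852 in Col+INA and 742 in Col, and its log2 ratio in the *npr1-1* comparison was 0.01 (95% interval -0.13 to 0.15). The 6 ATP synthase genes had log2 ratios from -0.70 to -0.24 in the INA comparison, from 0.57 to 0.96 in the *npr1-1* comparison and from 0.09 to 0.61 in the *hac1/5* comparison, none past the threshold. *atpB*, the beta subunit and the member with the most reads, had 73586 reads in *npr1-1*+INA, 48391 in *hac1/5*+INA, 46345 in Col+INA and 60490 in Col. Of 5 photosystem I genes none passed in any comparison, and of 6 cytochrome b6f genes 1 did, the small subunit gene *petN*, with 26 reads in *npr1-1*+INA, against 6 in Col+INA. *petA*, the cytochrome f subunit, had 543 reads in *npr1-1*+INA, 599 in *hac1/5*+INA, 605 in Col+INA and 596 in Col.

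**Figure D4:**
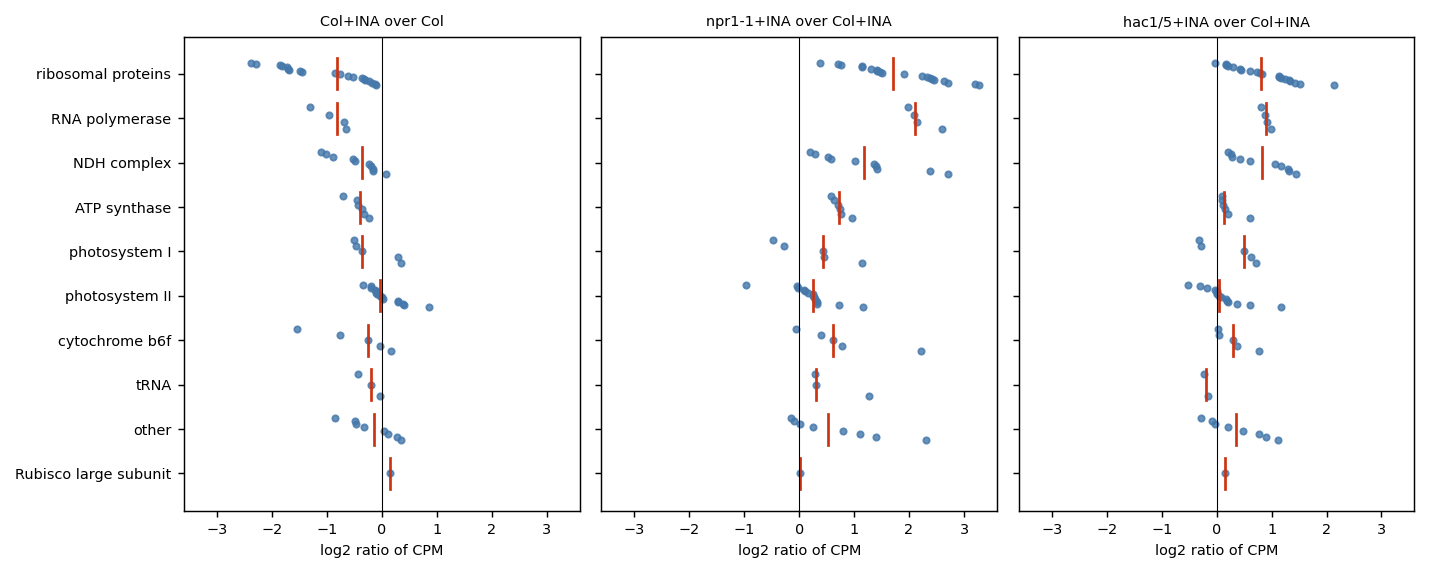
Log2 ratio of CPM (x axis) of the chloroplast-encoded genes with at least 10 reads in 1 of the 2 libraries, by functional group (y axis), in the 3 comparisons. Each point is a gene and the red line is the group's median; in the *npr1-1* comparison it is 2.12 for RNA polymerase, 1.70 for ribosomal proteins and 0.26 for photosystem II.

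Of the remaining genes, *matK*, the maturase of plastid introns, had 430 reads in *npr1-1*+INA, 289 in *hac1/5*+INA, 174 in Col+INA and 233 in Col, and was higher in *npr1-1*+INA than in Col+INA with a log2 ratio of 1.40. *clpP*, the catalytic subunit of the stromal protease, had 1596 reads in *npr1-1*+INA, 1334 in *hac1/5*+INA, 983 in Col+INA and 1332 in Col, and did not pass in any comparison. *accD* had 52 reads in *npr1-1*+INA, 62 in *hac1/5*+INA, 55 in Col+INA and 42 in Col, and each of its 3 intervals spanned 0. The same was so for *ccsA*, a cytochrome c assembly factor, with 59 reads in *npr1-1*+INA, 56 in *hac1/5*+INA, 70 in Col+INA and 66 in Col. *cemA*, which codes for an envelope membrane protein, had 335 reads in *npr1-1*+INA, 351 in *hac1/5*+INA, 381 in Col+INA and 303 in Col. Thus *accD*, *ccsA* and *cemA* passed in none of the comparisons. Of 4 tRNA genes none passed, and the most abundant, a serine tRNA listed as *trnS.2*, had 171 reads in *npr1-1*+INA, 125 in *hac1/5*+INA, 150 in Col+INA and 196 in Col. None of the following small photosystem II genes passed in any comparison. *psbJ* had 83 reads in *npr1-1*+INA, 81 in *hac1/5*+INA, 72 in Col+INA and 57 in Col, and *psbT* had 75 reads in *npr1-1*+INA, 52 in *hac1/5*+INA, 66 in Col+INA and 65 in Col. *psbE*, a cytochrome b559 subunit, had 299 reads in *npr1-1*+INA, 284 in *hac1/5*+INA, 297 in Col+INA and 217 in Col, and its log2 ratio in the INA comparison was 0.41.

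The members were also grouped by the polymerase known to transcribe them. Of 14 genes that depend mainly on the plastid-encoded enzyme, such as *psbA*, *psbD* and *rbcL*, none passed in any comparison. They took 9.49% of the chloroplast reads in *npr1-1*+INA, 14.1% in *hac1/5*+INA, 16.9% in Col+INA and 12.4% in Col. Relative to all reads on gene models they differed less, with 3819 CPM in *npr1-1*+INA, 3518 in *hac1/5*+INA, 3407 in Col+INA and 3540 in Col. Of the 4 listed genes that depend on the nuclear-encoded enzyme, the 3 genes *rpoB*, *rpoC1* and *rpoC2* were higher in *npr1-1*+INA and *accD* was not. The 4 took 0.838% of the chloroplast reads in *npr1-1*+INA, 0.530% in *hac1/5*+INA, 0.362% in Col+INA and 0.420% in Col. Of 7 genes transcribed by both enzymes, among them *clpP*, *atpB* and *atpE*, none passed in any comparison.

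Nuclear genes that serve plastid transcription and RNA turnover were read from lists of their own. Beside their counts stand the shares over all gene models: 7.54% were lower in Col+INA than in Col, 9.44% were higher in the *npr1-1* comparison and 3.34% in the *hac1/5* comparison. Of the 6 sigma factors, which direct the plastid-encoded polymerase to promoters, *SIG2*, *SIG4* and *SIG6* were higher in *npr1-1*+INA than in Col+INA, *SIG4* was lower in Col+INA than in Col, and none passed in *hac1/5*+INA. In these 3 genes, and also in *SIG1* and *SIG3*, *npr1-1*+INA and Col lay above *hac1/5*+INA and Col+INA. In *SIG5*, *npr1-1*+INA lay below Col+INA. *SIG2* had 1995 reads in *npr1-1*+INA, 938 in *hac1/5*+INA, 883 in Col+INA and 1628 in Col. *SIG6* had 2522 reads in *npr1-1*+INA, 999 in *hac1/5*+INA, 1209 in Col+INA and 2185 in Col. *SIG4* had 536 reads in *npr1-1*+INA, 149 in *hac1/5*+INA, 266 in Col+INA and 588 in Col. The log2 ratios of *SIG1*, *SIG3* and *SIG5* in the *npr1-1* comparison were 0.45, 0.58 and -0.19. *RPOTp*, the nuclear-encoded phage-type polymerase of plastids, had few reads, with 26 in *npr1-1*+INA, 11 in *hac1/5*+INA, 6 in Col+INA and 21 in Col, and passed as lower in Col+INA and as higher in *npr1-1*+INA.

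Of 12 proteins associated with the plastid-encoded polymerase (PAPs), 3 were lower in Col+INA than in Col, 9 were higher in the *npr1-1* comparison and 3 in the *hac1/5* comparison. The last 3 were *PAP5*, *PAP6* and *PAP7*, named after their values were seen. *PAP5* had 760 reads in *npr1-1*+INA, 274 in *hac1/5*+INA, 90 in Col+INA and 249 in Col, and *PAP7* had 673 reads in *npr1-1*+INA, 188 in *hac1/5*+INA, 95 in Col+INA and 243 in Col. *PAP6* differed from these in Col, with 472 reads in *npr1-1*+INA, 237 in *hac1/5*+INA, 97 in Col+INA and 61 in Col. Of 9 genes for RNA turnover and stability, 2 were lower in Col+INA than in Col, 5 were higher in the *npr1-1* comparison and none passed in the *hac1/5* comparison.

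Nuclear-encoded subunits of the photosynthetic complexes and of Rubisco were set beside their chloroplast-encoded partners. Of 31 such genes, 4 were lower in Col+INA than in Col (12.9%), 4 were higher in the *npr1-1* comparison (12.9%), and 1 was lower in the *hac1/5* comparison (3.23%). Over all gene models these shares were 7.54%, 9.44% and 5.09%. The median log2 ratio of the 31 genes was -0.70 in the INA comparison, 0.47 in the *npr1-1* comparison and 0.19 in the *hac1/5* comparison. For Rubisco, the 4 small subunit genes had a median log2 ratio of -0.83 in the INA comparison, 1.25 in the *npr1-1* comparison and -0.47 in the *hac1/5* comparison, where the chloroplast-encoded *rbcL* had 0.15, 0.01 and 0.15. In the *hac1/5* comparison all 4 were below 0 and 1 of them, AT5G38420, passed as lower, with a log2 ratio of -1.63. The small subunit genes are near-identical copies, so reads may have been split between them. For photosystem II the 10 nuclear genes had a median of -0.59 in the INA comparison, against -0.02 for the 15 chloroplast-encoded ones. For the ATP synthase the medians were -0.50 over 3 nuclear genes and -0.40 over 6 chloroplast-encoded ones.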

How the data were processed

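The authors aligned reads of pooled RNA from 3 experiments per condition with SOAPaligner/soap2, allowing up to 2 mismatches, to TAIR10 (submitters' processing notes), and deposited counts of reads per gene model, not normalized, and RPKM values, which are these counts per length and per sum of counts (recomputed with a largest relative difference of 4.7e-10). Library type, strand, counter and treatment of reads with several positions are not given in the sources used here. The deposited log2 ratios, p-values and FDR are the authors' own comparisons and were not used, and of the columns with values per sample 0 lacked a sample. Of 6 samples in the series, 4 were used.

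Tables were joined by gene model. Their headers abbreviate both mutant names, and each such column was taken as the INA-treated mutant that its table compares with Col+INA. Depth ranged from 6698569 to 7146973 reads. Ratios were of counts per library sum, tested with a two-sided exact binomial test (FDR of at most 0.01, log2 ratio of at least 1 in size) with Clopper-Pearson intervals (95%) for counting error only. RefSeq's copy gave the same start and end for 75 of 79 members, and it supplied names such as *ndhK*, *petN*, *psbZ*, *cemA*, *ccsA*, *petL* and *rps3*. A search with BLAST 2.17.0 at 98% identity found 2 members, both *rps12*, with at least 50% of their span repeated in the plastid genome and 0 with such a copy in the mitochondrial or nuclear genome. Genes of the inverted repeat such as *rpl2*, *ndhB* and *ycf2* are not among the 79 members and were not analysed here. *psbN* lies between *psbT* and *psbH* on the opposite strand, without overlap of the gene models. Without strand, reads from the 2 strands cannot be told apart there. Named genes were, per functional group, the member with the highest mean RPKM, the 5 largest and 5 smallest log2 ratios of each comparison among members with at least 50 reads in 1 of the 2 libraries, *psbA*, *psbD*, *rbcL*, *accD*, *rpoB*, *clpP*, *matK*, *SIG1* to *SIG6*, *RPOTp*, *NPR1*, *HAC1* and *HAC5*. Other names (*rps15*, *rps19*, *psaC*, *psbL*, *petN*, *rpoC1*, *rpoC2*, *atpB*, PAPs, *PI*, the leaf markers) were added after their values were seen. Single values of 2 members are not reported here. Members and lists were chosen with earlier results of these data known. The test was tried on simulated counts that held counting error only, so this says nothing of variation between plants. Computations used Python 3.11.15 with SciPy 1.17.1, and the alternatives used DESeq2 1.42.0 and edgeR 4.0.16 in R 4.3.3.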

Additional observations from a re-analysis of the deposited data

How the results depend on the processing

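The 58 other alternative values were counted as kept by the following rules. Where the main count was 0 the alternative was 0 too, which has no direction. Other counts stayed within 1.5 times the main count. Sums and medians kept their direction, sums within the counting interval and medians within a 95% interval from the spread over members. That interval treats neighbouring genes as independent, which they are not, and does not measure variation between plants. The exceptions follow. With the biological coefficient of variation set to 0.2, edgeR's exact test gave 18 genes higher in *npr1-1*+INA and 0 higher in *hac1/5*+INA, and at 0.4 it gave 0 lower in Col+INA, 0 higher in *npr1-1*+INA and 0 higher in *hac1/5*+INA. The log2 ratio of summed chloroplast reads for Col+INA over Col was -0.64 with TMM factors, -0.66 with DESeq2 size factors, -0.52 relative to reads outside the chloroplast genome, -0.54 without *atpB* and -0.30 without the 9 genes of the *rps19* to *rpoA* unit and *ycf1*. For *npr1-1*+INA over Col+INA these were 1.05, 1.05, 1.03, 1.10 and 0.60. For *hac1/5*+INA over Col+INA they were 0.20 with TMM factors, 0.19 with DESeq2 size factors, 0.40 without *atpB* and 0.14 without the unit and *ycf1*. The setting without the unit and *ycf1* was chosen after seeing the data. With DESeq2 size factors the median for Col+INA over Col was -0.48. The median of all gene models was 0.04 with TMM factors, in place of 0.18, for Col+INA over Col, and 0.02, in place of 0.13, in the *hac1/5* comparison. The cause was not tested. No paired analysis was possible because each condition has 1 library, and for the same reason no library could be left out. Without replicates, no value here measures the variation between plants.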
